A study of Homo sapiens with 4 samples.

Results

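The genes described here are 54 genes of DNA replication and S phase, taken from a fixed list of symbols and followed in HGC-27 cells, a human gastric carcinoma line, with and without knockdown of the deubiquitinase USP47. Of the 54 symbols, 53 were matched to an identifier among the 63568 in the count files, and all 53 passed the filter on low counts that left 21932 genes to test. UHRF1 matched no identifier and has no value here. RNA-seq was made from 2 libraries of cells infected with a lentivirus carrying a control (scrambled) shRNA and 2 libraries of cells infected with one carrying a USP47 shRNA. According to the study's methods, transduced cells were kept as puromycin-selected populations, and no cloning step is named. The paper used different USP47 shRNAs and speaks of them in the plural for the RNA-seq cells too. Which shRNA each USP47 shRNA library carried is not given in the sources used here, so the 2 libraries may carry different ones. The series text calls the samples biological duplicates. The p-values below rest on the spread between 2 libraries per group, with the spread of each gene estimated partly from other genes. The series text also speaks of DMSO as vehicle for controls, a treatment that the labels of these libraries do not name. The question was which cellular pathways change when USP47 is depleted.

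DNA replication is prepared in G1, when the origin recognition complex with CDC6 and CDT1 loads the MCM2 to MCM7 helicase onto origins. In S phase the kinase CDC7 with DBF4 activates it, CDC45 and the GINS complex join it, and primase, the polymerases alpha, delta and epsilon, the clamp PCNA, its loader RFC and the single-strand binding protein RPA build and guard the fork. Transcription of many of these genes is driven by E2F factors as cells enter S phase. In bulk RNA, fewer cells in S phase and less of a transcript per cell cannot be told apart.

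The libraries held 15649899 to 20140273 counts, of which the 53 genes took 0.378% and 0.382% in the controls and 0.373% and 0.31% under USP47 shRNA. USP47 itself was at 80 and 66.1 CPM (counts scaled to library size by the TMM method) in the controls and at 36 and 21.5 CPM under USP47 shRNA. Its log2 fold change was -1.34 (SE 0.21, adjusted p = 0.00362, edgeR quasi-likelihood test with Benjamini-Hochberg adjustment), and it ranged from -1.75 to -1.01 with 1 library left out. DKK3 on the opposite strand shares 41.4% of the exon bases of USP47, and how the counting used strand is not given in the sources used here. Of the markers of other cell types, PECAM1 of endothelium was at 0 in all 4 libraries and PTPRC of leukocytes was at 0.08 to 0.0922 TPM. The gastric epithelial keratins KRT18 and KRT19 were at or near 0, at no more than 0.028 TPM, while the mesenchymal VIM was at 103 to 137 TPM. The summed level of the 6 mesenchymal markers was 200 and 178 TPM in the controls and 154 and 148 TPM under USP47 shRNA. The sum of the 10 gastric epithelial markers was 11.5 and 9.58 against 15.8 and 9.01 TPM, that of the 6 immune markers 4.49 and 3.91 against 4.01 and 2.31 TPM, and that of the 4 endothelial markers 0.182 and 0.238 against 0.207 and 0.114 TPM. The TPM scale itself was lower in USP47 shRNA library 2. There the median of the 53 replication genes was 10.3 TPM against 15.4 to 17.9 TPM in the other libraries. The sums of that library are therefore not read as a change in the cells. In USP47 shRNA library 1 the mesenchymal sum was also below both controls. THY1 was at 8.41 and 8.38 TPM in the controls and at 1.61 and 1.85 TPM under USP47 shRNA. FN1 was at 6.15 and 5.47 against 2.19 and 2 TPM. VIM was at 137 and 122 TPM in the controls and at 103 and 110 TPM under USP47 shRNA. Its value in USP47 shRNA library 2 is subject to the lower TPM scale, so no fall is read from it there. In TPM, CDH2, ZEB1 and SPARC overlapped between the groups. The part of these markers in the results was not tested.

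Of the 53 genes 5 fell, GINS1, RPA1, ORC1, PRIM1 and TIPIN, and the others, with log2 fold changes from -0.48 to 0.21, did not pass the test. Each belongs to a different step of replication, and each is 1 subunit of a complex whose other measured subunits did not pass the test. No gene of the 53 rose at an adjusted p under 0.05. The 5 genes are 9.43% of the 53, and 9.56% of all 21932 genes tested were lower at that threshold (6.52% were higher), so in this fit the share of genes called lower was near that of all genes, and the share called higher was below it. At an unadjusted p under 0.05, 10 of the 53 were lower (18.9%, against 17.2% of all genes) and 0 were higher (against 14.8%). DESeq2 called 4 of the 53 lower (7.55%, against 2.83% of the 41439 genes with a count) and 0 higher (against 2.69%). Those 41439 genes include low-count genes that the filter for edgeR left out. The DESeq2 shares over all genes are therefore not comparable with the 9.56% and 6.52% of the 21932 filtered genes. With the replicate number as a block 26.4% were lower, against 17.7% of all genes, and without USP47 shRNA library 1 the shares were 35.8% and 15.4%, so how the 53 genes stood against the rest depended on the fit. None of these differences in share was tested.

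**Figure D1:**
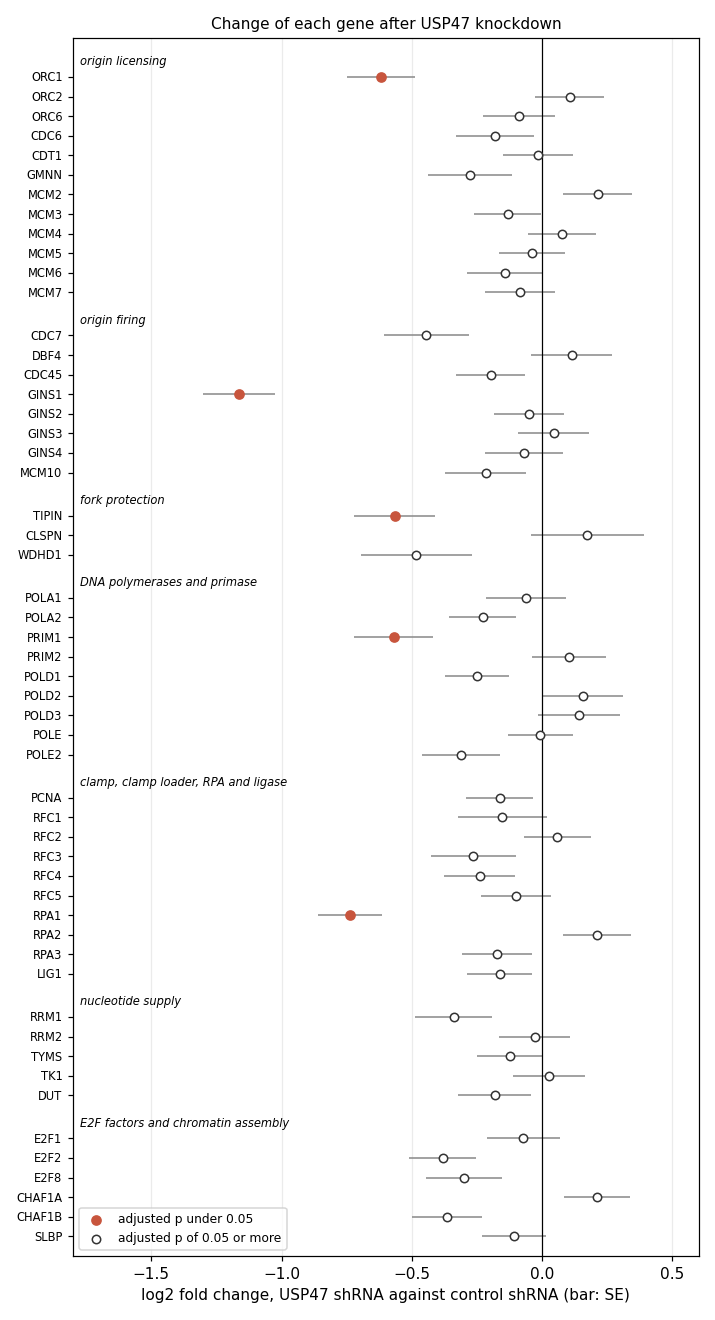
Log2 fold change of each of the 53 genes (x axis, USP47 shRNA against control shRNA, bars give the SE) by role, with filled points for an adjusted p under 0.05. The 5 filled points are ORC1, GINS1, TIPIN, PRIM1 and RPA1, from -1.16 to -0.57, and no filled point is above 0.

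The promoters of the 5 genes that fell are shown first, because these genes moved the same way and the transcription of replication genes is usually described through E2F and CCAAT elements. Each sequence runs 5′ to 3′ on the gene's own strand from 250 bases before the start of the RefSeq transcript to 50 bases after it, and capitals mark the motifs found.

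GINS1 promoter, GRCh38.p14 chr20:25407423-25407722, plus strand: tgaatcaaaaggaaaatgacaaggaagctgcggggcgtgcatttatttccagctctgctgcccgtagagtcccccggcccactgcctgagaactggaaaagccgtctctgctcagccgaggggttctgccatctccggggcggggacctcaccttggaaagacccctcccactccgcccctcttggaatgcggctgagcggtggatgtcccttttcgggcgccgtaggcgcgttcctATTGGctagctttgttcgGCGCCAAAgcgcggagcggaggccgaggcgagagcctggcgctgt
RPA1 promoter, GRCh38.p14 chr17:1829755-1830054, plus strand: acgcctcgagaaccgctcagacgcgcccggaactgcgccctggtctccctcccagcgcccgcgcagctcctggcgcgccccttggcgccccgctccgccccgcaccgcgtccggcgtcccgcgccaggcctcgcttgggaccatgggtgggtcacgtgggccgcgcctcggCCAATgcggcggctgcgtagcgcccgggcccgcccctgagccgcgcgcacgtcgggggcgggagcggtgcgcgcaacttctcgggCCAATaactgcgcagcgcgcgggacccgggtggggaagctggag
ORC1 promoter, GRCh38.p14 chr1:52404374-52404673, minus strand: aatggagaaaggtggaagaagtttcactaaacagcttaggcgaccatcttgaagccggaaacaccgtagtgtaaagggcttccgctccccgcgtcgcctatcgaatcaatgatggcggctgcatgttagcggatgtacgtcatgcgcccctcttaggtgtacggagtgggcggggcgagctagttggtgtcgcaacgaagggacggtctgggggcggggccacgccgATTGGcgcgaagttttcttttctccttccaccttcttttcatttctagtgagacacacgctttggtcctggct
PRIM1 promoter, GRCh38.p14 chr12:56752274-56752573, minus strand: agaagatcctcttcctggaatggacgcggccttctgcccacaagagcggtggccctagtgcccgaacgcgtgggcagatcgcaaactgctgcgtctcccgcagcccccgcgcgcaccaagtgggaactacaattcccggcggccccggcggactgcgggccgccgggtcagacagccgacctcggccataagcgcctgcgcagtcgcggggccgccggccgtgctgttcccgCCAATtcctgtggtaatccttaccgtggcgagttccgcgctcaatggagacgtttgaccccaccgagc
TIPIN promoter, GRCh38.p14 chr15:66386668-66386967, minus strand: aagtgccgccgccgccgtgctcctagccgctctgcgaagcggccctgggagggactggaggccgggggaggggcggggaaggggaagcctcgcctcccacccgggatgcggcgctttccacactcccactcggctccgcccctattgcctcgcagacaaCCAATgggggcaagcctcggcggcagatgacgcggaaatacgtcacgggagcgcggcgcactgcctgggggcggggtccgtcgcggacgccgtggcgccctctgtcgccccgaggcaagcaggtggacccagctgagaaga

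The motifs searched on both strands were the E2F words TTTCCCGC, TTTCGCGC, TTTGCCGC and TTTGGCGC, the cell cycle homology region TTTGAA and the CCAAT box, which is bound by NF-Y. Matches of different motifs can overlap, and none did so in the promoters shown. A CCAAT box was found in all 5 promoters, read as ATTGG in GINS1 and ORC1, where it lies on the opposite strand. It was present in 26 of 47 promoters of the replication genes that had an entry (55.3%) and in 36.6% of the 12081 promoters of tested genes. In PRIM1, ORC1 and GINS1 the box began 18, 23 and 13 bases before the start, and in TIPIN 91 bases before it. RPA1 held 2 boxes, of which the first began 79 bases before the start. An E2F word was found in GINS1 alone of the 5, at base 256 of the window, just after the start. Only exact words were counted, and near matches were not searched for. Among the sequences shown, ORC1 held ATTGGCGC and RPA1 held CTTGGCGC, which differ from the word TTTGGCGC in the first base. PRIM1 held GTTCCCGC, which differs from TTTCCCGC in the first base. The near match of ORC1 includes its marked CCAAT box, and that of PRIM1 ends on the first base of its box. E2F words were present in 21 of the 47 replication gene promoters (44.7%) and in 4.98% of the promoters of tested genes. The genes with an E2F word had a median log2 fold change of -0.13 (20 genes) and those without one had -0.19 (26 genes). With a CCAAT box the median was -0.13 (25 genes, the 5 that fell among them) and without one it was -0.18 (21 genes). The median with either motif thus lay nearer to 0 than the median without it, a description without a test. TTTGAA was in 2 of the 47 promoters, in 10.4% of the promoters of tested genes and in 0 of the 5 shown. These matches describe letters in a window and not binding, and TIPIN had a further entry in the table that was not used.

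Licensing of origins was represented by 12 genes, of which 9 were lower and 3 higher in sign, with a median log2 fold change of -0.09. ORC1, the ATPase subunit of the origin recognition complex whose protein level follows the cell cycle (ENSG00000085840.8, GRCh37 chr1:52838501-52870095, minus strand), was the 1 gene of this step that fell. It was at 35.6 and 38.3 CPM in the controls and at 24.7 and 23.4 CPM under USP47 shRNA. The groups did not overlap, and the USP47 shRNA mean was 24.1 ± 0.923 CPM against 37.0 ± 1.92 CPM (SD, n = 2 each). The log2 fold change of ORC1 was -0.62 (SE 0.13, adjusted p = 0.0125, edgeR). Without control library 1 the adjusted p of ORC1 was 0.104, and without control library 2 it was 0.164.

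The origin recognition subunits ORC2 and ORC6 had log2 fold changes of 0.10 and -0.09, with adjusted p of 0.618 and 0.693 (edgeR). ORC3, ORC4 and ORC5, which belong to the second list described further on, had 0.07, -0.03 and 0.09, and none of them passed the test. The 6 subunits of the MCM helicase ranged from -0.14 for MCM6 to 0.21 for MCM2, with a median of -0.06, and 0 of 6 passed the test. Their 95% intervals ran from -0.46 at the lowest bound, for MCM6, to 0.51 at the highest, for MCM2, so changes of the size seen for GINS1 lay outside them. MCM3 was lower in both USP47 shRNA libraries, at 206 and 195 CPM against 217 and 222 CPM. MCM2 was higher in both, at 132 and 136 CPM against 107 and 125 CPM, and neither gene passed the test. The loaders CDC6 and CDT1 had log2 fold changes of -0.18 and -0.02. GMNN, which encodes geminin, the inhibitor of CDT1, had -0.28 (SE 0.16, adjusted p = 0.265, edgeR).

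Origin firing held the largest fall among the 53 genes. GINS1 (ENSG00000101003.8, GRCh37 chr20:25371644-25433336, plus strand) encodes PSF1, a subunit of the GINS complex that completes the active helicase with CDC45 and MCM2 to MCM7. It was at 36.4 and 40.4 CPM in the controls and at 17.6 and 16.6 CPM under USP47 shRNA. Both knockdown libraries were far below both controls, with a group mean at 44.6% of control. The log2 fold change of GINS1 was -1.16 (SE 0.14, adjusted p = 0.000916, edgeR), and GINS1 was the 1 gene of the 53 that stayed called with each library left out. Its adjusted p was 0.000115 without control library 1 and 0.000836 without control library 2.

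The partners of GINS1 lay near 0. GINS2 was at -0.05, GINS3 at 0.04 and GINS4 at -0.07 on the log2 scale, with 95% intervals from -0.40 at the lowest bound to 0.34 at the highest. Set against the geometric mean of the CPM of GINS2, GINS3 and GINS4 in the same library, GINS1 stood at a ratio of 1.59 and 1.64 in the controls and of 0.746 and 0.717 under USP47 shRNA. This ratio does not depend on the scaling of a library, but it restates the log2 fold changes above and is no separate result. NINL, which lies on the opposite strand and shares 3.23% of the exon bases of GINS1, was also lower, with a log2 fold change of -0.77 (adjusted p = 0.00642, edgeR).

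CDC7, the catalytic subunit of the kinase that fires origins, was at 49.9 and 45.0 CPM in the controls and at 40.3 and 29.1 CPM under USP47 shRNA. The groups did not overlap, but the knockdown libraries lay far apart, and the log2 fold change of -0.45 (SE 0.16) missed the threshold (adjusted p = 0.09, edgeR). DBF4, which encodes the subunit that activates CDC7, had a log2 fold change of 0.11. CDC45 and MCM10, which help to start unwinding, had -0.20 and -0.22, and neither passed the test.

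At the fork, TIPIN (ENSG00000075131.5, GRCh37 chr15:66628529-66679084, minus strand), the partner of TIMELESS in the complex that protects stalled forks, was at 11.5 and 11.3 CPM in the controls and at 7.69 and 7.66 CPM under USP47 shRNA. By counts it was the lowest of the 53 genes, at 110 to 221 in a library, while per length GINS4 was lower in the controls. Within each group the libraries were nearly equal, and the log2 fold change was -0.57 (SE 0.16, adjusted p = 0.0343, edgeR). DESeq2 gave TIPIN an adjusted p of 0.144, and without control library 1 or 2 the edgeR value was 0.291 or 0.22. The pseudogene RPL9P25 shares 21.1% of the exon bases of TIPIN on the same strand and was listed at 0 counts in all 4 libraries. TIMELESS was at 175 and 190 CPM in the controls and at 137 and 148 CPM under USP47 shRNA, with a log2 fold change of -0.36 (adjusted p = 0.0844, edgeR).

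The other fork genes showed how far apart the USP47 shRNA libraries could be, and both were singled out after their values were seen. CLSPN, which encodes claspin, an adaptor for checkpoint signalling, was at 73.2 and 63.9 CPM in the controls and at 98.1 and 56.2 CPM under USP47 shRNA. One knockdown library was above both controls and the other below both, so its log2 fold change of 0.17 (SE 0.22) gives no direction. It was 0.52 without USP47 shRNA library 2 (adjusted p = 8.45e-05, edgeR) and -0.28 without USP47 shRNA library 1 (adjusted p = 0.0664). WDHD1, which links the helicase to polymerase alpha, was at 70.0 and 63.2 CPM against 60.2 and 34.8 CPM. Its log2 fold change of -0.48 (SE 0.21, adjusted p = 0.146, edgeR) was -0.93 without USP47 shRNA library 1 and -0.14 without USP47 shRNA library 2.

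The polymerases and primase held 9 genes, 6 of them lower in sign, with a median log2 fold change of -0.06. PRIM1 (ENSG00000198056.9, GRCh37 chr12:57124222-57146158, minus strand) encodes the catalytic subunit of primase, which makes the RNA primers. It was at 40.7 and 38.5 CPM in the controls and at 30.1 and 23.1 CPM under USP47 shRNA. Both knockdown libraries were below both controls, USP47 shRNA library 2 more so, and the log2 fold change was -0.57 (SE 0.15, adjusted p = 0.0308, edgeR). PRIM1 missed the threshold with scaling by library size alone (adjusted p = 0.0658), without control library 1 (0.245) and without control library 2 (0.119). HSD17B6 on the opposite strand shares 3.99% of the exon bases of PRIM1 and was itself lower, at -1.25 (adjusted p = 0.0154, edgeR). NACA shares 4.2% on the same strand and had a log2 fold change of 0.26 (adjusted p = 0.234).

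PRIM2, the regulatory subunit of primase, had a log2 fold change of 0.10, and the polymerase alpha subunits POLA1 and POLA2 had -0.06 and -0.23. Set against the geometric mean of PRIM2, POLA1 and POLA2 in the same library, PRIM1 stood at 0.899 and 0.865 in the controls and at 0.655 and 0.578 under USP47 shRNA. Of polymerase delta, POLD1, which holds the catalytic site, was lower in both libraries, at 54 and 53.4 CPM against 62.5 and 65.2 CPM (log2 fold change -0.25, adjusted p = 0.186, edgeR). The accessory subunits POLD2 and POLD3 had 0.16 and 0.14. POLD2 was called higher without USP47 shRNA library 1 (0.33, adjusted p = 0.0126, edgeR), and POLD3 was called higher without USP47 shRNA library 2 (0.34, adjusted p = 0.024). Of polymerase epsilon, the catalytic POLE had -0.01 and the second subunit POLE2 had -0.31 (adjusted p = 0.181).

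Among the clamp, its loader, RPA and the ligase, 8 of 10 genes were lower in sign and 1 fell. RPA1 (ENSG00000132383.7, GRCh37 chr17:1732996-1803376, plus strand) encodes the large subunit of RPA, which makes most of the contacts with single-stranded DNA. It was at 89.3 and 85.5 CPM in the controls and at 52.5 and 52.3 CPM under USP47 shRNA. The knockdown libraries were almost equal and well below both controls, and the log2 fold change was -0.74 (SE 0.12, adjusted p = 0.00432, edgeR). RPA1 kept its call without control library 2 (adjusted p = 0.0281) and not without control library 1 (0.0768). SMYD4 on the opposite strand shares 3.19% of the exon bases of RPA1 and had a log2 fold change of 0.06 (adjusted p = 0.795).

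The smaller RPA subunits lay on either side of 0, and neither passed the test. RPA2 was at 32.3 and 32.8 CPM in the controls and at 39.9 and 35.3 CPM under USP47 shRNA, both above the controls, with a log2 fold change of 0.21 (SE 0.13, adjusted p = 0.294, edgeR). RPA3 had -0.17 (adjusted p = 0.394). The ratio of RPA1 to the geometric mean of RPA2 and RPA3 was 2.8 and 2.54 in the controls and 1.57 and 1.59 under USP47 shRNA. PCNA, the sliding clamp, was at 100 and 99.9 CPM against 95.4 and 83.5 CPM, a log2 fold change of -0.16 (adjusted p = 0.411). The 5 RFC subunits ranged from -0.26 for RFC3 to 0.06 for RFC2, and LIG1, which seals the lagging strand, had -0.16. None of these passed the test.

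**Figure D2:**
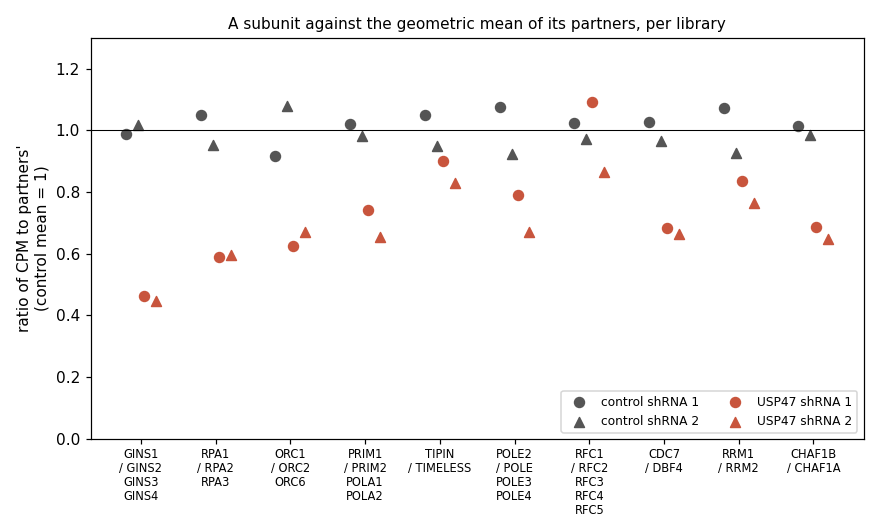
Ratio of 1 gene's CPM to the geometric mean of its partners' CPM in each library (y axis, control mean set to 1) for 10 genes and their partners (x axis). GINS1 lies lowest in the USP47 shRNA libraries, and RFC1 is the 1 gene whose groups overlap. Genes and partners were chosen after the values were seen, so how many ratios are lower is not a result.

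Such ratios were also computed for 5 further genes. For these and for the genes that fell, the gene and its partners were chosen after the values were seen. CDC7, CHAF1B, POLE2 and RRM1, like the 5 genes that fell, each had a lower log2 fold change than the partners set under them. Their lower ratios follow from those values and are no separate result. With 2 libraries against 2 an exact permutation test cannot give a two-sided p below 0.333, so no ratio was tested. The ratio of CDC7 to DBF4 was 1.19 and 1.12 in the controls and 0.794 and 0.771 under USP47 shRNA. That of CHAF1B to CHAF1A, subunits of the chromatin assembly factor that deposits histones behind the fork, was 0.242 and 0.235 against 0.164 and 0.155. The ratio of POLE2 to POLE, POLE3 and POLE4 was 0.481 and 0.412 against 0.353 and 0.3, and that of RRM1 to RRM2 was 1.05 and 0.907 against 0.818 and 0.746. The ratio of RFC1 to the other RFC subunits was 1.81 and 1.72 against 1.93 and 1.53, and its groups overlapped. For ORC1 against ORC2 and ORC6 it was 0.882 and 1.04 against 0.601 and 0.646. For TIPIN against TIMELESS it was 0.0656 and 0.0594 against 0.0562 and 0.0519, a log2 shift of -0.21 against -1.14 for GINS1.

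Nucleotide supply held 5 genes and none passed the test. RRM1, the large subunit of ribonucleotide reductase, had the smallest p of them and was at 118 and 111 CPM in the controls and at 102 and 78.8 CPM under USP47 shRNA. Its groups did not overlap, and its log2 fold change was -0.34 (SE 0.15, adjusted p = 0.141, edgeR). RRM2, the small subunit whose level rises in S phase, had -0.03, and TYMS, thymidylate synthase, had -0.12. TK1, thymidine kinase, had 0.03. DUT, the dUTPase, had -0.18, but 8 annotated copies of DUT together held 46.8% as many counts as DUT itself, so its value is uncertain. TYMS shares 39.9% of its exon bases with ENOSF1 on the opposite strand, and its value is uncertain for the same kind of reason.

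Among the E2F factors and chromatin assembly genes, 0 of 6 measured genes passed the test. E2F2, an activator of S-phase genes, lay just outside the threshold, at 40.4 and 43.3 CPM in the controls and at 32.5 and 31.7 CPM under USP47 shRNA. Its groups did not overlap, with a log2 fold change of -0.38 (SE 0.13, adjusted p = 0.0657, edgeR). TIPIN was the gene just inside it, then PRIM1, and CDC7 followed E2F2 outside it. E2F1 had -0.07 and the repressor E2F8 had -0.30 (adjusted p = 0.186). CHAF1B had -0.36 (SE 0.13, adjusted p = 0.0901), while CHAF1A was higher in both knockdown libraries, at 133 and 132 CPM against 109 and 120 CPM (0.21, adjusted p = 0.275). SLBP, which binds histone mRNA, had -0.11.

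**Figure D3:**
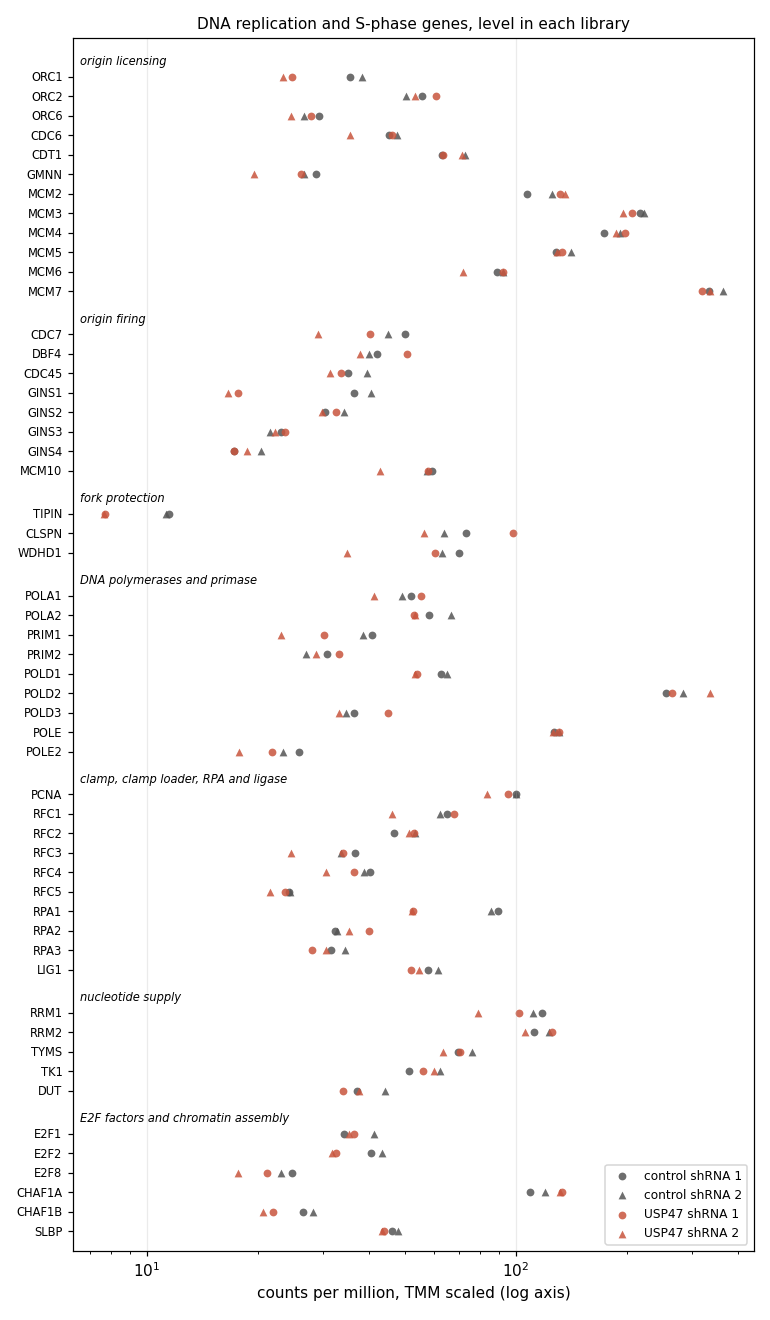
CPM of each gene (x axis, log scale) in each of the 4 libraries (gray, control shRNA, red, USP47 shRNA, circles, replicate 1, triangles, replicate 2), by role. For GINS1, RPA1, ORC1 and TIPIN the red points sit together below the gray ones, and for CLSPN they lie on either side of them.

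Taking the 53 genes as a set, 40 were lower in sign and 13 higher, and the median log2 fold change was -0.13, with quartiles of -0.26 and -0.01. Over all 21932 genes tested the median was -0.01 and the quartiles were -0.34 and 0.27. The replication genes thus spread less than genes in general, as 9 of the 53 lay below the lower quartile of all genes and 0 above the upper one. Both USP47 shRNA libraries lay below both control libraries for 23 of the 53 genes (43.4%, against 31.7% of all genes tested), and above both for 3 genes, MCM2, RPA2 and CHAF1A (5.66%, against 29.3% of all genes tested). The 53 genes are also more abundant than most, with a median of 5.51 log2 CPM against 3.15 for all genes tested. The medians and shares are descriptions, and no test was made of them. Without the 12 licensing genes the median was -0.16, and without the 10 genes of the clamp, loader, RPA and ligase it was -0.11.

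**Figure D4:**
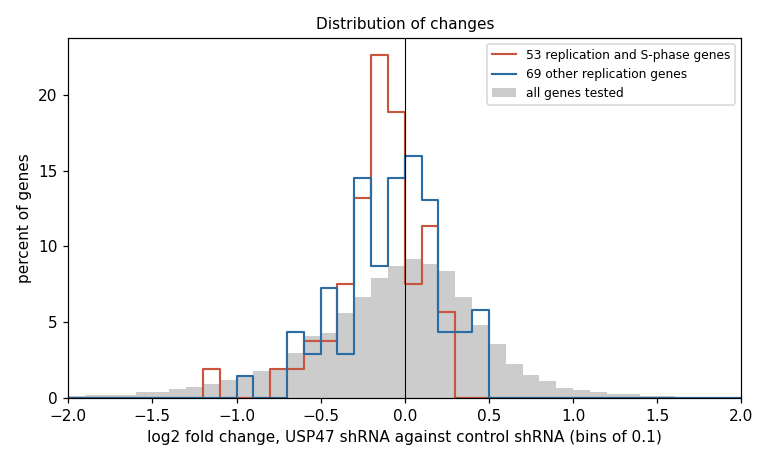
Percent of genes (y axis) in bins of 0.1 log2 fold change (x axis, USP47 shRNA against control shRNA) for all genes tested (gray), the 53 replication and S-phase genes (red) and 69 other replication genes (blue). The red line is narrower than the gray bars and peaks just below 0.

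The USP47 shRNA libraries differed from each other over these genes. The median log2 CPM of the 53 genes stood at -0.05 relative to the control mean in USP47 shRNA library 1 and at -0.19 in USP47 shRNA library 2, and 43 of the 53 genes were lower in library 2 than in library 1. The summed CPM of the 53 genes was 3635 and 3799 in the control libraries, 3615 in USP47 shRNA library 1, just below both controls, and 3378 in library 2. USP47 was also lower in library 2. Left out in turn, library 1 left 19 of the 53 genes called lower (35.8%, against 15.4% of all genes in that fit) and library 2 left 6 (11.3%, against 15.0%), with the lone library assumed to vary like the controls. The median log2 fold change was -0.18 without library 1 and -0.05 without library 2.

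The gap between these libraries moved with base composition. Across the 53 genes the difference in log2 CPM between USP47 shRNA library 2 and library 1 had a Spearman rho of 0.753 with the GC content of the transcript, and across 21203 tested genes with a known transcript the rho was 0.405. The gap was -0.80 for CLSPN (44% GC) and -0.79 for WDHD1 (38.2% GC), and 0.16 for CDT1 (64.3% GC) and 0.35 for POLD2 (59.4% GC). The control libraries showed a gradient as well, with a rho of -0.707 over the 53 genes for library 1 minus library 2. The log2 fold change itself had a rho of 0.275 with GC content over the 53 genes and of 0.049 over all genes. These correlations run across genes of the same libraries, which are not independent replicates. Of the 19 replication genes with a GC content below 44%, 15 were lower in sign, with a median of -0.22, and of the 13 with a GC content of 53% or more, 9 were lower, with a median of -0.04. In a fit with a GC correction, added after the data were seen, the median of the 53 genes was -0.12, and 8 were called lower (15.1%, against 12% of all genes). These were the 5 genes above with CDC7, CHAF1B and E2F2.

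**Figure D5:**
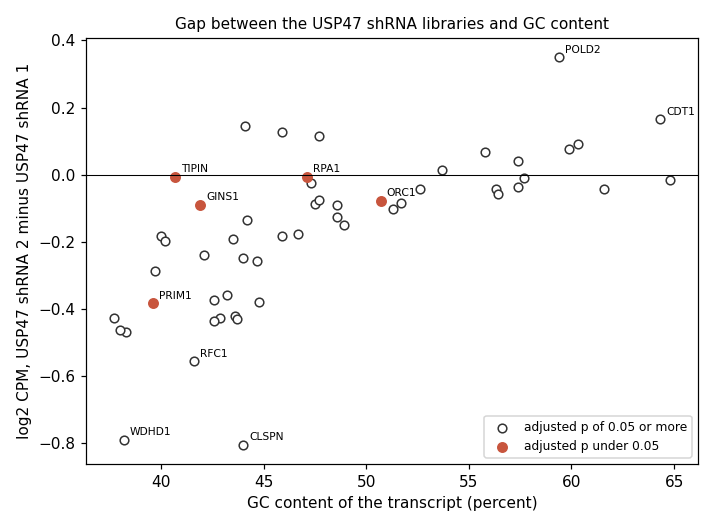
Log2 CPM of USP47 shRNA library 2 minus library 1 (y axis) against the GC content of the transcript in percent (x axis), 1 point per gene. GINS1, RPA1, ORC1 and TIPIN lie near 0 on the y axis, while WDHD1 and CLSPN lie near -0.8.

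The levels of the genes per transcript length were compared by the deposited TPM within a library. In the control libraries the highest levels were those of MCM7, POLD2, PCNA and MCM3, from 108 ± 2.96 TPM for MCM7 to 82.4 ± 5.99 TPM for MCM3 (SD, n = 2), and the lowest were GINS4 at 4.67 ± 0.15 TPM, TIPIN at 5.66 ± 0.59 TPM and GINS3 at 5.98 ± 0.839 TPM. The means of TIPIN and GINS3 differed by less than their SD. The range from GINS4 to MCM7 was 23.2-fold. Subunits that act in equal number in the MCM helicase were at unequal levels, from 25 ± 0.608 TPM for MCM5 to 108 TPM for MCM7. In the GINS complex, GINS2 and GINS1 led in the control libraries, at 13.6 and 13.4 TPM for GINS2 and at 12.6 and 12.4 TPM for GINS1. In the USP47 shRNA libraries GINS2 was at 14.4 and 9.89 TPM and GINS1 at 6.11 and 4.29 TPM, next to GINS3 at 6.71 and 4.72 TPM. In RPA, RPA1 and RPA2 were level in the control libraries, at 23.7 and 20 TPM and at 23.3 and 20.9 TPM. In the USP47 shRNA libraries RPA1 was at 13.9 and 10.3 TPM and RPA2 at 28.7 and 19 TPM. The TPM scale moved between libraries, with a median over the 53 genes of 17.9 and 15.4 TPM in the controls and of 16.1 and 10.3 TPM under USP47 shRNA, so the order of TPM values is read within a library.

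A further 69 genes of replication, from a second list in the same 7 roles, gave a wider picture. All 69 were tested, 39 were lower and 30 higher in sign, and the median log2 fold change was -0.04. Of these 7 fell and 1 rose at an adjusted p under 0.05 (edgeR), against 9.56% and 6.52% of all genes. The largest fall was that of DCK, deoxycytidine kinase of the nucleoside salvage pathway, from 15.2 and 15.0 CPM to 7.5 and 8.22 CPM. Its log2 fold change was -0.94 (SE 0.15, adjusted p = 0.00401, edgeR), and MOB1B on the same strand shares 6.41% of its exon bases. PRIMPOL, a primase that restarts stalled forks, fell from 12.1 and 12.5 CPM to 8.94 and 6.27 CPM (-0.68, adjusted p = 0.0348), and CENPU on the opposite strand shares 18.6% of its exon bases. RNASEH2A, the catalytic subunit of the enzyme that removes ribonucleotides from DNA, fell from 64.3 and 72.9 CPM to 40.8 and 47.7 CPM (-0.63, adjusted p = 0.0138).

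POLDIP2, a partner of polymerase delta, fell from 129 and 135 CPM to 79.9 and 93.4 CPM (-0.61, adjusted p = 0.0139, edgeR). TNFAIP1 on the opposite strand shares 14.2% of the exon bases of POLDIP2. DSCC1, of the clamp loader variant that acts in sister chromatid cohesion, fell from 139 and 136 CPM to 102 and 85.6 CPM (-0.55, adjusted p = 0.0222). ETAA1, an activator of the checkpoint kinase ATR, fell from 40.7 and 34.2 CPM to 29.2 and 20.6 CPM (-0.58, adjusted p = 0.0491), just inside the threshold. NASP, a histone chaperone, fell from 266 and 246 CPM to 201 and 175 CPM (-0.45, adjusted p = 0.0497), also just inside it. The riser was E2F4, an E2F factor known mainly as a repressor with the pocket proteins, from 67.2 and 70.9 CPM to 86.8 and 98 CPM (0.42, SE 0.13, adjusted p = 0.0498). POLDIP3 had the highest log2 fold change of the 69, 0.43, at 96 and 98.2 CPM against 119 and 142 CPM, and did not pass the test (adjusted p = 0.0569). E2F4 missed the threshold with library size alone (adjusted p = 0.0647, edgeR) and without the filter on low counts (0.0823). With library size alone PRIMPOL, ETAA1 and NASP missed it too, at 0.0731, 0.101 and 0.0544. Without either control library, 1 of the 69 genes stayed called lower and 0 higher. With 1 library per control group these fits called 3.86% and 4.42% of all genes lower.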

How the data were processed

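mRNA from HGC-27 cells was sequenced in 4 libraries, 2 per group. According to the study's methods, reads were trimmed at a quality score of 20 and mapped to hg19 with STAR 2.7.5c, and duplicates and low-quality reads were removed with SAMtools 1.9. The submitters' processing notes also name featureCounts and Picard 2.23.3. Removal of duplicates without molecular identifiers can lower the counts of abundant genes. The library kits named in the labels and in the methods differ, and the methods speak of triplicates where 2 libraries per group were analysed here.

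The deposited files hold raw counts, TPM and FPKM per gene, made by the authors. The deposited TPM values were used, without a test, for the levels of genes in each library and the sums of marker genes, and the deposited FPKM values were not used. Identifiers were matched to symbols with GENCODE v44 lifted to GRCh37 (55665 of 63568). Counts were tested with edgeR 4.0.16 in R 4.3.3 (filterByExpr, TMM, robust quasi-likelihood fit, Benjamini-Hochberg over 21932 genes, adjusted p under 0.05). Depth was 15649899 to 20140273 counts, and error terms cover 2 libraries per group. CPM are TMM scaled, and log2 CPM per library used a prior count of 2. Intervals are at 95% from the same fit. The fit was tested on simulated counts with 200 changed genes, drawn with a common dispersion of 0.0118. It recovered 73.9% of the genes with a log2 change of 1 and 91.5% of those with a log2 change of 2. Smaller changes were not simulated, so how often the fit would call them is not known.

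Promoters came from the RefSeq table of GRCh38.p14, first entry per symbol, with 47 of 54 genes matched. GC content and length are those of the canonical GENCODE transcript. Figures were drawn with matplotlib 3.10.9. The genes and lists were chosen with earlier results of these data known. Values in every library are given for called genes, for the gene with the smallest p in each of 7 roles, for those either side of the threshold and for the called and extreme genes of the second list, and other genes shown so were chosen after their values were seen. Alternatives were DESeq2 1.42.0, other scalings and filters, a replicate block, fits that each left out 1 library, and a GC correction (a lowess curve per library used as an offset).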

Additional observations from a re-analysis of the deposited data

How the results depend on the processing

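The median log2 fold change of the 53 replication genes stayed below 0 in all 12 alternatives, from -0.20 with library size alone to -0.05 without USP47 shRNA replicate 2, while 18 of the genes changed sign in at least 1. USP47 was called lower in each. The count of calls depended on the libraries. Leaving out 1 library gave 1 to 19 of the 53 genes lower and 0 to 3 higher, 1 to 23 of the 69 other genes lower and 0 to 8 higher, and 907 to 3576 of all genes lower and 323 to 3770 higher. The labels share only a replicate number. Replicate 1 deviations correlated at 0.213 between groups over all genes and 0.728 over the 53, which 2 libraries per group cannot show to be a pairing. With the replicate block 14 of the 53 genes were lower (26.4%, against 17.7% of all genes), 15 and 6 of the 69 were lower and higher, and 3892 and 3530 of all genes. The GC correction, added after the data were seen, called 8 of the 53 lower (15.1%, against 12% of all genes). It called 5 of the 69 and 2788 of all genes (12.7%) higher, and turned the median of the 69 genes from -0.0414 to 0.0106. With the replicate block as well, the correction called 12 of the 53 (22.6%), 17 of the 69 and 3635 of all genes (16.6%) lower. Higher in that fit were 0 of the 53, 8 of the 69 and 4160 of all genes (19%). The cause was not tested. DESeq2 called 2 of the 69 genes higher and 1171 of all genes lower. Library size alone called 0 of the 69 higher, and 881 higher and 1919 lower of all genes. The filters with no minimum and with at least 10 counts in every library each called 0 of the 69 higher.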
